A study of Mus musculus with 18 samples.

Results

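Light zone germinal centre B cells that carried the receptor DEC205 (DECP) were compared with light zone germinal centre B cells that lacked it (DECN) at 24 h after an antibody to DEC205 joined to ovalbumin, by RNA sequencing of 4 DECP and 4 DECN libraries, which are 8 of the 18 libraries of the series. The libraries were chosen by their titles, as the DECP and DECN samples of the 24 h table that had no rapamycin. Both groups were B1-8hi B cells, which carry a heavy chain that binds the hapten NP, and both came from the same kind of host: a C57BL/6 mouse primed in the abdomen with ovalbumin in alum. At 2 weeks after priming each host received a mixture in which 15% of the transferred B cells were Ly75+/+ and CD45.1 (DECP) and 85% were Ly75-/- and CD45.1/2 (DECN), and NP-ovalbumin was then injected into the footpads. The antibody was given on day 6 of that response, so DECN cells came from antibody-treated hosts too and are no untreated control. Cells were sorted from the popliteal lymph node as B220+, CD38- and CD95+, with high CD83 and low CXCR4, and the groups were separated by CD45.2. The groups therefore also differ in their CD45 allele and in their share of the transferred cells, and the levels of CD83 and CXCR4 protein were fixed by the sort in both. Another 4 libraries of 24 h, from DECP cells of hosts given rapamycin at 2.5 mg/kg, entered the filter on low values and the estimate of the spread but not the contrast. The extraction protocol in the labels speaks of 6 conditions in 3 biological replicates, which does not match the 5 groups of 3 or 4 libraries of the series. Whether the libraries of a group came from separate animals is not stated for these groups, and p-values then measure only how far these libraries spread, which may be technical.

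In a germinal centre, B cells mutate their receptors and divide in the dark zone, and then take up antigen, present it on MHC class II and compete for signals of follicular helper T cells in the light zone. DEC205 is an endocytic receptor that passes what it binds to the compartments where MHC class II molecules are loaded, so antigen joined to an antibody to DEC205 can be presented whatever the affinity of the B cell receptor. T cell signals in the light zone are known to induce MYC for a short time and to license growth, return to the dark zone and division there.

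For orientation, 6 promoters are printed that were chosen among the named genes to show the motifs below. The matches in them are therefore not a result. They belong to a pair of MHC class II chain genes, which were lower in DECP cells, and to 4 genes of division, metabolism and nuclear transport, which were higher. Sequences are the 150 bases before the annotated start, 5′ to 3′ on the gene's strand, from RefSeq on GRCm38.p6. Capitals mark matches to the motifs that were searched in the 250 bases before each start on both strands: CACGTG (an E-box that MYC and MAX can bind), CCAAT (bound by NF-Y), TTTGAA (the core of the CHR element of cell cycle genes), TGATTGG (the Y box of MHC class II promoters) and TGTTTAC (a forkhead site). The last 5 letters of TGATTGG are the reverse complement of CCAAT, so each match to it is also a match to CCAAT.
H2-Eb1, chr17:34305717-34305866, plus strand: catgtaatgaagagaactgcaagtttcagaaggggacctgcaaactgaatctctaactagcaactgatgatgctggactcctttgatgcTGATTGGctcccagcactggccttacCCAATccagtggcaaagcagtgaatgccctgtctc
H2-Aa, chr17:34287824-34287973, minus strand: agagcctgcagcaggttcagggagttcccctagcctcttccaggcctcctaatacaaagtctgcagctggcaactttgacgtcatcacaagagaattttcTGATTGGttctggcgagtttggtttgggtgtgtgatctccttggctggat
Ccnb1, chr13:100786487-100786636, minus strand: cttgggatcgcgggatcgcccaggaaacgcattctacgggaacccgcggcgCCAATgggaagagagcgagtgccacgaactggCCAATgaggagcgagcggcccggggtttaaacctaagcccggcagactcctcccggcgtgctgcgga
Tubb5, chr17:35838302-35838451, minus strand: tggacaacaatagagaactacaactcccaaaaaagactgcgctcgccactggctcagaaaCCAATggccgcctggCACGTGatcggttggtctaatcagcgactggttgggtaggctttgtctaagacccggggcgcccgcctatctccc
Ldha, chr7:46845654-46845803, plus strand: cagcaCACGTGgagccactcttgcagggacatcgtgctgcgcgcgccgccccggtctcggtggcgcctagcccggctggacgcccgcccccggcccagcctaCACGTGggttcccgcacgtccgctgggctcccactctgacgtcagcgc
Ranbp1, chr16:18248695-18248844, minus strand: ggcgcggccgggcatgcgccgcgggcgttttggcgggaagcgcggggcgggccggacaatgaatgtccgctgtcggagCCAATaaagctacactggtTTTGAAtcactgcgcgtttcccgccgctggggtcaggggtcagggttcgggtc
H2-Eb1 and H2-Aa both held the Y box, Ccnb1 held CCAAT in 2 places, Ldha held the E-box in 2 places, Tubb5 held an E-box and a CCAAT, and Ranbp1 held a CCAAT and the CHR core.

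A promoter was found for 8840 of the 12748 tested genes, among them 252 of those higher and 124 of those lower in DECP cells. The E-box CACGTG stood in 36 of the 252 higher genes (14.3%) and in 9 of the 124 lower genes (7.26%), against 8.45% of all promoters of that length. CCAAT stood in 41.3% of the higher and 32.3% of the lower genes, against 37.3% of all, and the CHR core in 15.9% and 12.9%, against 11.2% of all. TGATTGG stood in 12.7% of the higher and 7.26% of the lower genes, against 10.9% of all, and the forkhead site in 2.38% and 4.03%, against 2.15% of all. Within the list of MHC class II presentation genes TGATTGG stood in 8 of 11 promoters (72.7%), and within that of MHC class I presentation, of which none fell, in 8 of 15 (53.3%). Within the list of kinesins, tubulins and stathmin CCAAT stood in 20 of 32 (62.5%) and the CHR core in 11 of 32 (34.4%). A match describes letters in a promoter and not a bound site.

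Ly75, which encodes DEC205 (chromosome 2, bases 60292103 to 60383303 of GRCm38, minus strand), had 14.8, 18.1, 13.1 and 10.3 TPM in DECP libraries and 4.91, 5.72, 6.66 and 2.76 TPM in DECN libraries. TPM is a share of transcripts, corrected for transcript length and scaled to a fixed sum in every library, so levels can be compared between genes. Every DECP library stood above every DECN library, and the means of 14.1 ± 3.28 and 5.01 ± 1.67 TPM (SD, n = 4 each) differed by 9.05 TPM (two-sided exact permutation test, p = 0.02857, the smallest that 4 against 4 allows). Without DECN replicate 4 the difference was 8.3 TPM with an exact p of 0.05714. The knockout group was not at 0, and which part of the gene was deleted is not stated in the labels. Ptprc, which encodes CD45, had 145, 286, 204 and 251 TPM in DECP libraries and 293, 342, 375 and 378 TPM in DECN libraries (log2 difference -0.68, SE 0.18, adjusted p = 0.0487). The groups did not overlap in it, and the part that the allele or the sort on CD45.2 has in that difference cannot be told apart from the rest.

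Between 11128 and 12020 genes reached 1 TPM in a DECP library and between 11562 and 12033 in a DECN library. DECP replicate 1 had the fewest, and it also had the highest TPM of several genes named below, among them Npm1, Hspa8, Srm and Ccnb1. Its mitochondrially encoded share was 2.10% of TPM, against 3.03% to 4.09% in the other DECP libraries and 2.93% to 3.44% in DECN libraries. All 14 germinal centre B cell markers were measured, and their summed level was 1820 to 2340 TPM in DECP and 2670 to 3470 TPM in DECN libraries, with Ms4a1 and Cd79a among those lower in DECP. Of 25 myeloid and dendritic markers 3 passed the filter on low values. Their summed level was 422 to 623 TPM in DECP and 1040 to 1140 TPM in DECN libraries, most of it Apoe, while S100a8 and S100a9 were listed at 0 in all 8. T cell markers summed to 168 to 203 TPM in DECP and 215 to 310 TPM in DECN libraries, with Cd3d higher and Lck lower in DECP. Stromal markers summed to 141 to 185 TPM in DECP and 150 to 221 TPM in DECN libraries, with Ccl19, Ccl21a, Cdh5 and Clu at 0. Erythroid and platelet markers summed to 20.5 to 56.9 TPM in DECP and 56.6 to 104 TPM in DECN libraries. The part of these markers in the results below was not tested. In bulk samples, fewer cells of a type and less RNA per cell cannot be told apart.

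Of 12748 genes tested, 347 were higher in DECP than in DECN libraries (2.72%) and 169 were lower (1.33%), 516 in all (4.05%), by limma on log2(TPM + 1) with Benjamini-Hochberg adjusted p under 0.05. With the libraries brought to the same distribution by quantile scaling the split was 217 higher and 210 lower. At an unadjusted p under 0.05 there were 1307 higher and 945 lower genes. The higher genes had a median log2 difference of 0.89 and the lower ones of -0.92, and the difference was at least 2-fold in 128 and 72 of them. The called genes were abundant: their median mean level was 128 TPM for those higher and 91.2 TPM for those lower, against 10.5 TPM over all genes tested. In 343 of the 347 and 164 of the 169 the libraries of DECP and DECN did not overlap, against 866 (6.79%) and 599 (4.7%) of all tested genes. The call and the overlap rest on the same values, so the lack of overlap largely follows from the call and is no separate support. By the adjusted p of the authors' deposited table, 626 of 12034 genes were higher in DECP (5.2%) and 469 were lower (3.9%), and these held 339 of the 347 and 164 of the 169. Counts within gene lists below are to be read against the 2.72% and 1.33% of all tested genes.

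**Figure D1:**
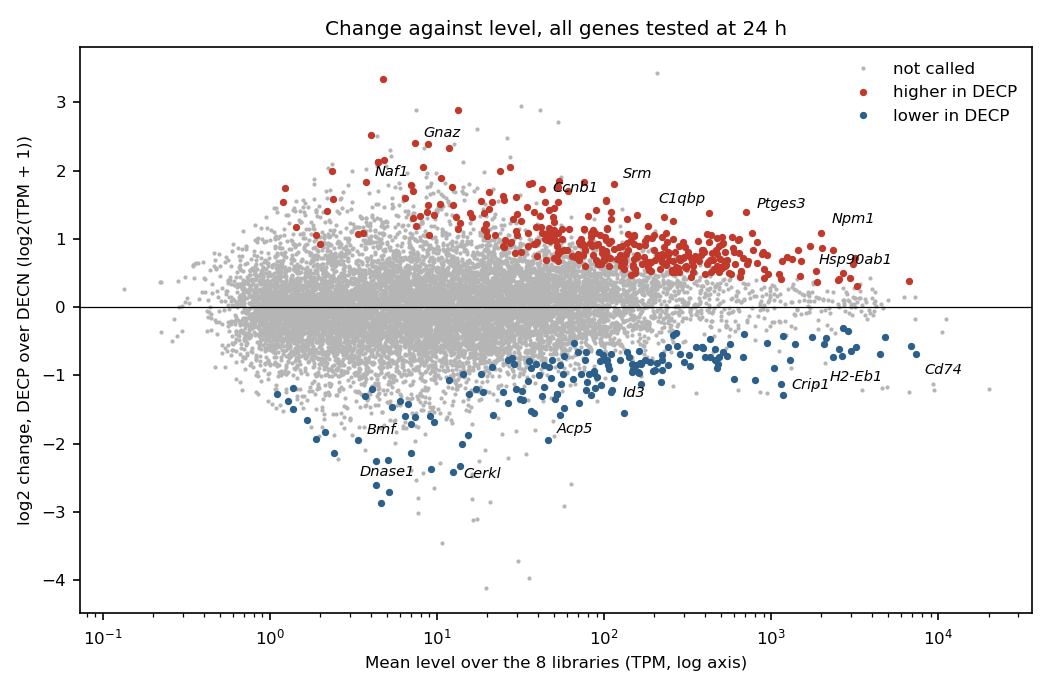
Log2 difference between DECP and DECN at 24 h (vertical axis) against the mean TPM over the 8 libraries (horizontal axis, logarithmic) for 12748 tested genes, with the 347 higher and 169 lower genes coloured. The coloured genes lie towards the abundant end, with genes of biosynthesis and division above 0 and MHC class II and receptor genes below 0.

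The gene with the smallest p was Ptges3, which encodes the HSP90 cochaperone p23 (chromosome 10, bases 128058954 to 128077272 of GRCm38). It had 1065, 1169, 825 and 1035 TPM in DECP libraries and 406, 358, 400 and 391 TPM in DECN libraries, a log2 difference of 1.39 (SE 0.12, adjusted p = 0.000384). The lowest DECP library held more than 2 times the highest DECN library. Of 29 heat shock and cochaperone genes 9 rose and none fell, with a median log2 difference of 0.45, against 0.00 over all genes tested. These were Ptges3, Hsp90ab1 and Hsp90aa1 (the cytosolic HSP90 proteins), Hspa8 (constitutive HSP70), Hspa4 and Hsph1 (HSP110 exchange factors), Ahsa1 (an activator of the HSP90 ATPase), and Ppid and Fkbp4 (HSP90-binding immunophilins). Hspa8 had 4148, 2588, 2905 and 2526 TPM in DECP libraries and 1541, 1836, 1535 and 1756 TPM in DECN libraries (log2 difference 0.84, SE 0.13, adjusted p = 0.00392). Of 16 genes of the cytosolic chaperonin, the ring that folds actin and tubulin, and of prefoldin, which hands it its substrates, 7 rose and all were chaperonin subunits, with a list median of 0.58. Cct6a was the most changed, with 432, 282, 317 and 282 TPM in DECP and 114, 132, 135 and 137 TPM in DECN libraries (log2 difference 1.32, SE 0.16, adjusted p = 0.0012). As single libraries were left out, the heat shock count ranged between 4 and 9 (4 without DECP replicate 1 or 3) and the chaperonin count between 3 and 7 (3 without DECP replicate 1), and under quantile scaling 3 of the 16 were higher and 1 lower.

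Enzymes that make nucleotides, polyamines and one-carbon units were the next group. All 20 tested genes of purine synthesis had a log2 difference above 0, with a median of 0.77, and 7 of them rose. They include Pfas, Paics and Gart of the pathway to IMP, and Impdh2 and Gmps, which lead from IMP to GMP. Pfas had 157, 152, 117 and 137 TPM in DECP and 78, 58.1, 73.5 and 84.2 TPM in DECN libraries (log2 difference 0.93, SE 0.16, adjusted p = 0.00668). Of 21 pyrimidine and deoxynucleotide genes 7 rose, with a list median of 0.61. Among them Rrm1 and Rrm2, the subunits of ribonucleotide reductase, differed by 0.98 and 0.71, the thymidylate synthase gene Tyms by 0.83 and the CTP synthase gene Ctps by 1.40 on the log2 scale. Uck2, a uridine-cytidine kinase of the salvage path, had 39.7, 59.9, 37.7 and 36 TPM in DECP and 23.1, 9.85, 8.86 and 3.71 TPM in DECN libraries (log2 difference 2.05, SE 0.39, adjusted p = 0.0114). In the same list Samhd1, which degrades deoxynucleotides, fell, with 91.8, 134, 129 and 166 TPM in DECP and 184, 196, 270 and 238 TPM in DECN libraries (log2 difference -0.78), a call that was lost in 12 of 22 alternative settings. Of 16 serine and folate genes 4 rose, with a list median of 0.72, among them the reduced folate carrier Slc19a1 with 14.6, 8.51, 6.26 and 4.58 TPM in DECP and 1.98, 0.802, 1.58 and 0.124 TPM in DECN libraries (log2 difference 2.15, SE 0.38, adjusted p = 0.00746). These counts ranged between 5 and 8, 4 and 7, and 2 and 4 as single libraries were left out.

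The polyamine list moved both ways. Odc1, which makes putrescine and is the limiting step of the pathway, had 343, 228, 250 and 200 TPM in DECP and 112, 102, 139 and 90.1 TPM in DECN libraries (log2 difference 1.19, SE 0.18, adjusted p = 0.00334). Srm, the spermidine synthase gene and a known MYC target, had 260, 132, 193 and 130 TPM in DECP and 50.6, 51.9, 27.2 and 76.1 TPM in DECN libraries (log2 difference 1.80, SE 0.29, adjusted p = 0.00392). Both were higher in every DECP library than in any DECN library. Eif5a, which carries the hypusine made from spermidine, rose by 0.77. Sat1, which acetylates polyamines for breakdown and export, had 244, 449, 336 and 368 TPM in DECP and 559, 582, 629 and 674 TPM in DECN libraries (log2 difference -0.83), and Oaz1, the antizyme that marks ODC1 protein for degradation, differed by -0.34. In all, 3 of 17 tested members rose and 2 fell. Leaving out 1 library gave 3 or 4 higher and 0 to 2 lower, with no lower call left without DECN replicate 4.

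**Figure D2:**
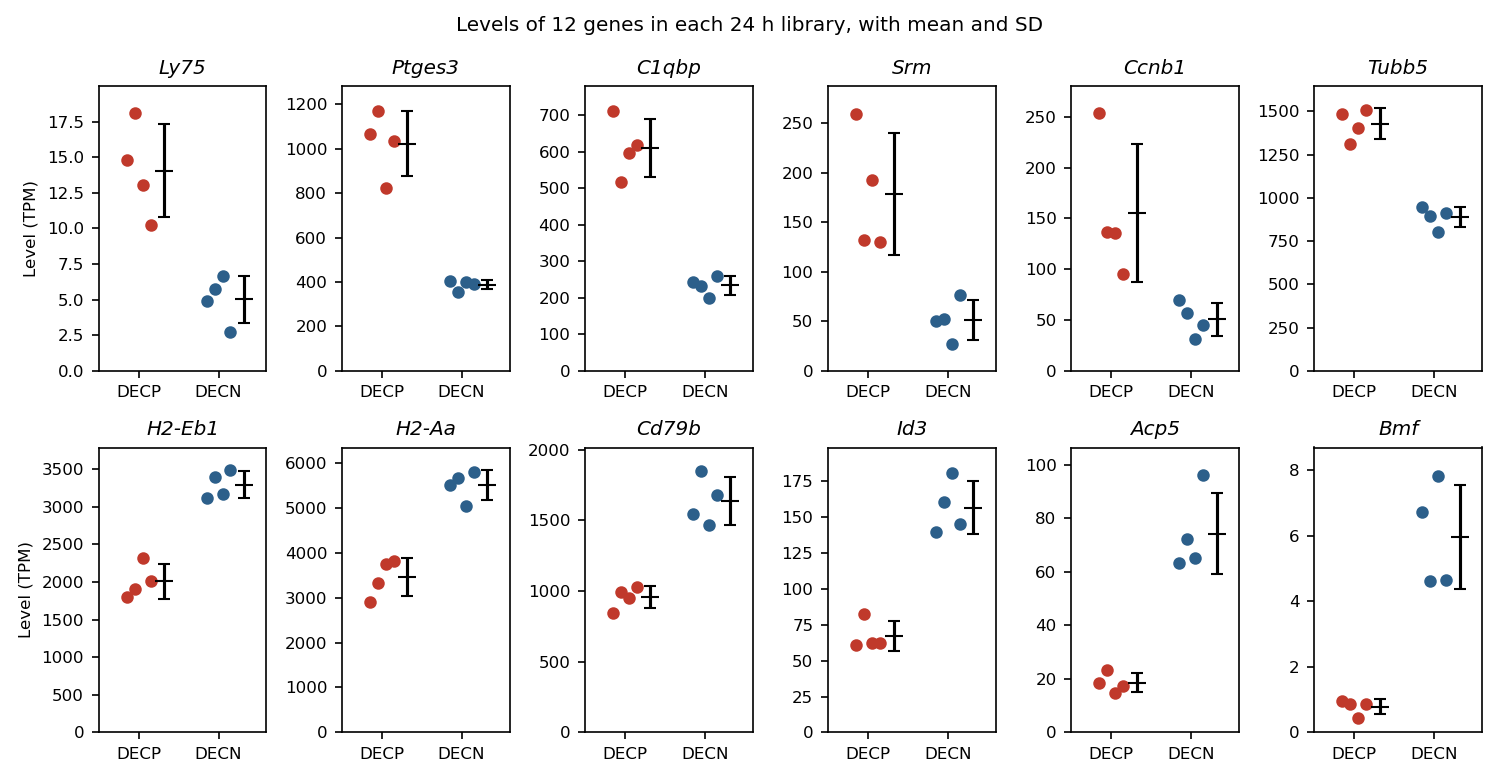
TPM in each DECP library (left) and each DECN library (right) at 24 h for 12 genes, with the mean as a line and the SD as a bar (n = 4 each). Ly75, Ptges3, C1qbp, Srm, Ccnb1 and Tubb5 stand higher in DECP libraries and H2-Eb1, H2-Aa, Cd79b, Id3, Acp5 and Bmf stand lower, with no overlap in any panel.

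Genes of ribosome assembly in the nucleolus were called at some steps and not at others. Of 17 genes of the box C/D and H/ACA particles, which modify ribosomal RNA with guide RNAs, 9 rose and all 17 had a log2 difference above 0 (median 0.77). Gar1 had 207, 284, 239 and 181 TPM in DECP and 106, 89.1, 76.9 and 80.3 TPM in DECN libraries (log2 difference 1.35, SE 0.17, adjusted p = 0.0012), and Nop58, Fbl, Nhp2 and Nop10, further core proteins of these particles, rose with it. The call of Nop10 was lost in 19 of 22 alternative settings, and that of Nop58 in 2. Of 52 genes of large subunit processing 10 rose, with a median of 0.60. Npm1, an abundant nucleolar chaperone of ribosome assembly, had 3717, 2327, 2439 and 2453 TPM in DECP and 1298, 1322, 1286 and 1154 TPM in DECN libraries (log2 difference 1.09, SE 0.13, adjusted p = 0.0012). Ncl (nucleolin) differed by 1.03 and the nucleolar GTPase gene Gnl3 by 1.57. The large subunit list as a whole made up 0.932%, 0.694%, 0.711% and 0.674% of TPM in DECP and 0.427%, 0.424%, 0.422% and 0.407% in DECN libraries, and DECP replicate 1 was the highest. Of 50 genes of small subunit processing 2 rose, a share near that of all genes, and their median was 0.45. Of 36 subunits and factors of RNA polymerases I and III 1 rose, with a median of 0.06, and of 28 genes of RNase P, RNase MRP and tRNA processing 1 rose, both shares near that of all genes. The gene called among the 28 was Rpp40, a subunit of RNase P and RNase MRP. It had 48.6, 45.7, 29.4 and 29.9 TPM in DECP and 8.22, 12.6, 10.5 and 4.99 TPM in DECN libraries (log2 difference 2.00, SE 0.34, adjusted p = 0.00668). Counts with 1 library left out were 4 to 8 for the guide RNA particles (4 without DECN replicate 3 or 4) and 6 to 9 for the large subunit (6 without DECP replicate 1).

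Of 48 initiation, elongation and termination factors 11 rose, with a median of 0.33, among them the helicase gene Eif4a1 and the cap-binding protein gene Eif4e, both of the eIF4F complex. Leaving out 1 library gave 6 to 9 (6 without DECN replicate 2), and quantile scaling gave 6. Eif4a1 had 686, 626, 555 and 676 TPM in DECP and 359, 266, 356 and 287 TPM in DECN libraries (log2 difference 1.01, SE 0.12, adjusted p = 0.000933). Of 80 cytosolic ribosomal protein genes 5 rose and 1 fell, with a median of 0.10, and the list made up 21.7%, 19.4%, 21.4% and 18.1% of TPM in DECP and 17.7%, 20.3%, 18% and 19.2% in DECN libraries, which overlap. Rps2 differed by 0.71, and Fau, whose product is a ubiquitin-like protein joined to a small subunit protein, by -0.42. Leaving out 1 library gave 2 to 8 higher and 0 or 1 lower ribosomal protein genes. Among 39 tRNA synthetase genes 3 rose, including Hars, and 1 did without DECP replicate 1 or 3 or DECN replicate 2. Reads of ribosomal protein genes and their processed copies are divided between them by an estimate, so these values are uncertain.

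Genes of mitochondria, glycolysis, redox balance and protein breakdown were also higher in DECP cells. C1qbp, a protein of the mitochondrial matrix, had 710, 517, 595 and 619 TPM in DECP and 243, 232, 200 and 260 TPM in DECN libraries (log2 difference 1.38, SE 0.14, adjusted p = 0.000549). Of 35 mitochondrial chaperone and import genes 10 rose, with a median of 0.49, among them Hspd1 and Hspe1, the matrix chaperonin and its lid, at 1.26 and 0.95 on the log2 scale. The count was 6 to 9 with 1 library left out (6 without DECP replicate 3). Of 73 genes of the respiratory complexes 13 rose, with a median of 0.29, and the list made up 2.97%, 2.63%, 3.05% and 2.65% of TPM in DECP and 2.29%, 2.43%, 2.12% and 2.42% in DECN libraries. Those that rose belong to complex I (Ndufab1, Ndufb8, Ndufa12 and Ndufv2), complex III (Uqcrb), complex IV (Cox7b, Cox5a and Cox7a2) and the ATP synthase (Atp5f1, Atp5g1, Atp5b, Atp5g3 and Atp5j). Between 6 and 11 were higher with 1 library left out (6 without DECP replicate 1 or 3), and under quantile scaling 4 were higher and 1 lower. The 13 genes encoded in mitochondrial DNA held no call, nor did the 31 genes of the pentose phosphate path and TCA cycle.

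Of 22 glycolytic genes 5 rose, with a median of 0.45: Hk2, Tpi1, Gapdh, Pgam1 and Ldha. Ldha, which makes lactate from pyruvate, had 1024, 915, 1082 and 980 TPM in DECP and 626, 498, 560 and 562 TPM in DECN libraries (log2 difference 0.83, SE 0.09, adjusted p = 0.000933). Of 33 genes of the glutathione, thioredoxin and peroxiredoxin systems 6 rose. The most abundant of these were Sod1, a superoxide dismutase, with 4252, 3474, 3658 and 3745 TPM in DECP and 2559, 2376, 2360 and 2424 TPM in DECN libraries, and Prdx1, a peroxiredoxin, with 1947, 1812, 1780 and 1843 TPM in DECP and 1089, 1029, 997 and 1036 TPM in DECN libraries (log2 differences 0.64 and 0.83). In both, the spread within a group was small beside the gap between groups. Of 46 proteasome genes 13 rose, with a median of 0.40, and all but Psmg2, an assembly chaperone, encode subunits: the 7 genes Psma1 to Psma7 of the α ring of the 20S core, and 5 genes of the 19S cap (Psmd1, Psmd6, Psmd7, Psmd12 and Psmd14). Psma3 had 992, 1105, 932 and 987 TPM in DECP and 638, 682, 606 and 650 TPM in DECN libraries (log2 difference 0.64, SE 0.09, adjusted p = 0.00205). As each library was left out in turn, 8 to 12 proteasome genes (8 without DECP replicate 1 or 3 or DECN replicate 2) and 3 to 5 glycolytic genes (3 without DECP replicate 1 or 3 or DECN replicate 3 or 4) were higher.

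Of 55 nuclear pore and transport genes 7 rose, with a median of 0.52: Ran, the GTPase that sets the direction of transport, its partner Ranbp1, the import receptor Kpnb1, the export receptor Xpo1, and the pore proteins Nup205, Nup37 and Nup85. Ranbp1 had 675, 564, 604 and 552 TPM in DECP and 348, 349, 323 and 319 TPM in DECN libraries (log2 difference 0.83, SE 0.10, adjusted p = 0.000933). Of 48 genes of the core spliceosome 7 rose, with a median of 0.40, and all 7 encode Sm, Sm-like or U2 snRNP proteins (Snrpd1, Snrpe, Snrpf, Snrpg, Snrpa1, Lsm3 and Lsm8). These counts were 4 to 6 and 5 to 8 with 1 library left out.

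**Figure D3:**
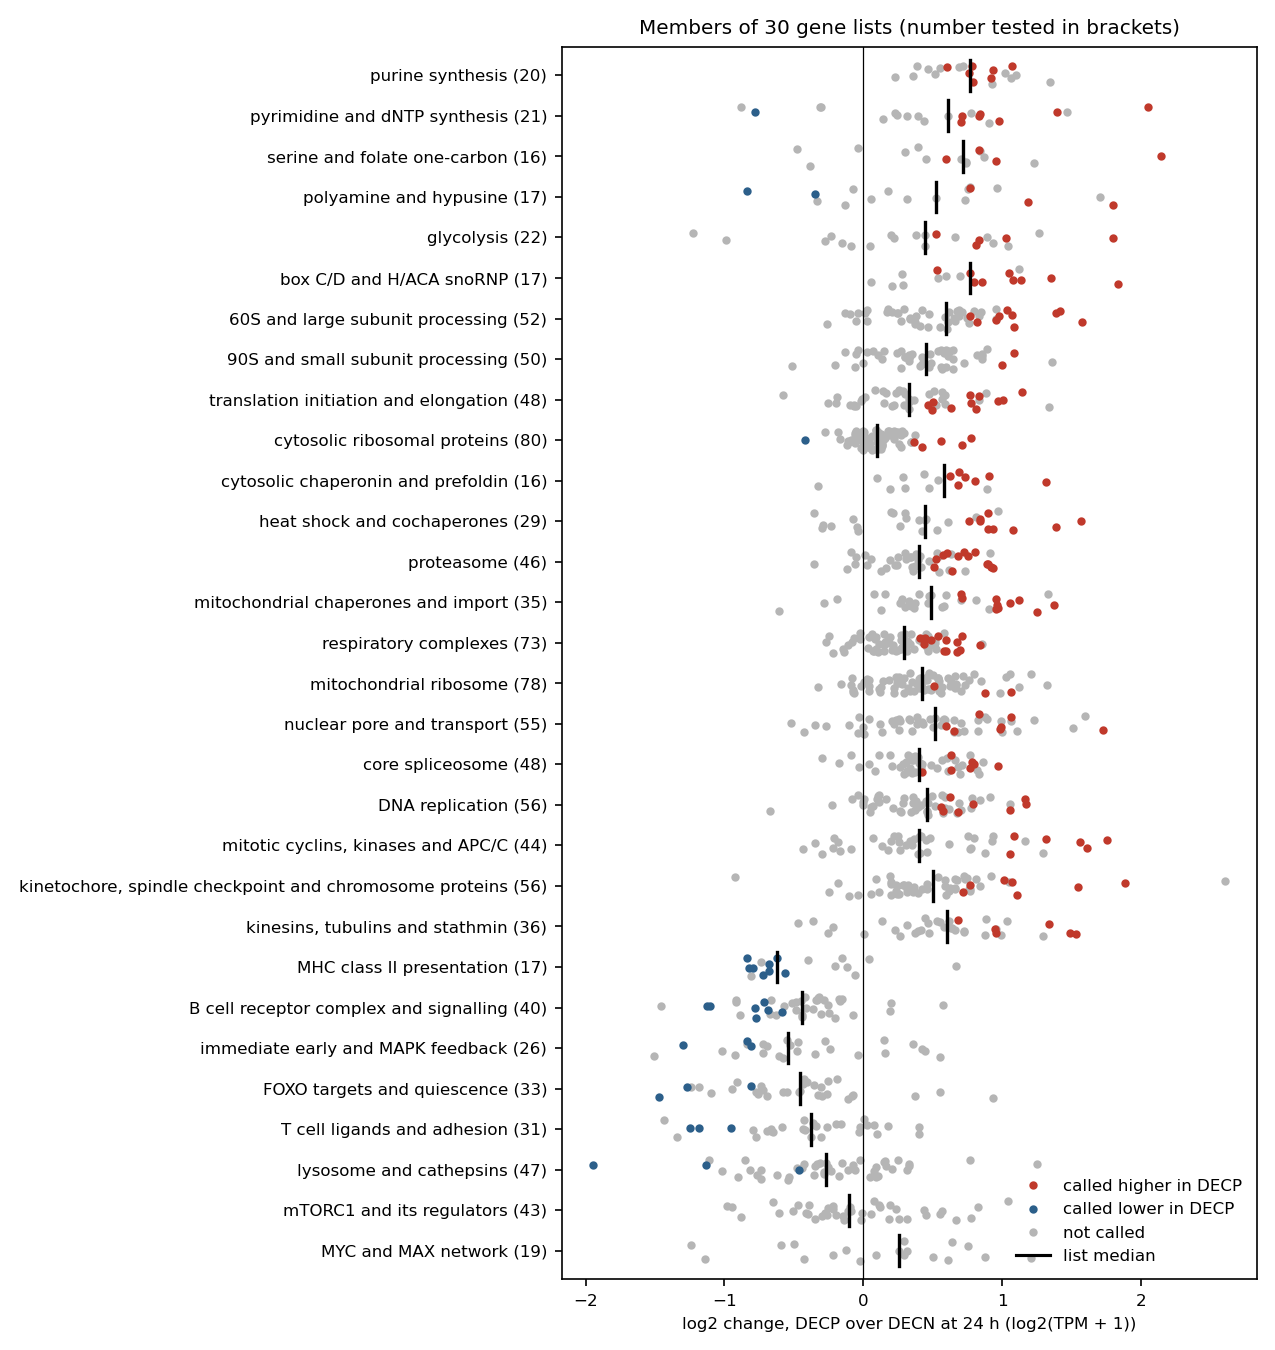
Log2 difference between DECP and DECN at 24 h for every tested member of 30 gene lists (points) with the list medians (bars). Lists of nucleotide synthesis, ribosome assembly, folding and division lie mostly above 0, and the lists of MHC class II presentation and of the B cell receptor lie mostly below 0, with medians of -0.62 and -0.44.

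Genes of DNA replication and of mitosis were higher in DECP light zone cells. Of 56 replication genes 8 rose, with a median of 0.46, and the list made up 0.600%, 0.586%, 0.609% and 0.580% of TPM in DECP and 0.447%, 0.436%, 0.470% and 0.454% in DECN libraries. They include Orc2 and Orc6 of the origin recognition complex, Gins1 of the replicative helicase, Prim2 of primase, the sliding clamp Pcna, Clspn and Tipin, which stabilise forks, and Gmnn, which blocks licensing. Pcna had 539, 576, 488 and 576 TPM in DECP and 365, 329, 384 and 398 TPM in DECN libraries (log2 difference 0.56, SE 0.11, adjusted p = 0.0138). Of 27 E2F, cyclin and G1 genes 2 rose, Cdk6 (log2 difference 0.99) and the E2F partner Tfdp1 (0.70), and 0 to 2 did with 1 library left out (0 without DECN replicate 4). Ccnd2, the cyclin D2 gene, had 9.95, 20.6, 15.3 and 11.7 TPM in DECP and 4.25, 6.47, 20 and 3.79 TPM in DECN libraries and did not pass the test (log2 difference 0.91, adjusted p = 0.306). DECN replicate 3 overlapped with the DECP libraries in that gene.

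Of 44 mitotic cyclin, kinase and APC/C genes 6 rose, with a median of 0.40: the cyclins Ccna2, Ccnb1 and Ccnb2, the kinases Plk1 and Nek2, and the CDK-binding protein gene Cks1b. Ccnb1 had 253, 137, 136 and 95.2 TPM in DECP and 69.6, 57, 31.2 and 45.5 TPM in DECN libraries (log2 difference 1.56, SE 0.33, adjusted p = 0.0181). The lowest DECP library stood above the highest DECN library, and DECP replicate 1 was the highest. Of 56 kinetochore, checkpoint and chromosome genes 7 rose, among them Birc5 (survivin, of the chromosomal passenger complex) at 1.02, the topoisomerase gene Top2a at 0.72 and Cenpw at 1.55 on the log2 scale. Of 36 kinesin, tubulin and stathmin genes 6 rose, and the abundant tubulin gene Tubb5 had 1487, 1309, 1405 and 1507 TPM in DECP and 944, 894, 805 and 915 TPM in DECN libraries (log2 difference 0.68, SE 0.08, adjusted p = 0.00101). Mki67, the gene of the proliferation marker Ki-67, did not pass the test, with 29.9, 42, 31.6 and 20.4 TPM in DECP and 19.8, 21.3, 18.3 and 11.3 TPM in DECN libraries (log2 difference 0.77, adjusted p = 0.126 by limma), although the authors' deposited table gives it an adjusted p of 0.0183. With 1 library left out 3 to 6 replication genes, 2 to 7 mitotic genes (2 without DECP replicate 1) and 3 to 7 kinetochore genes were higher, while without DECP replicate 1 the medians of these lists were 0.45, 0.52 and 0.56. Quantile scaling left 4 replication, 5 mitotic and 2 kinetochore genes higher, the last a share near that of all genes. The kinesin and tubulin count was 3 to 6 with 1 library left out (3 without DECP replicate 3).

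**Figure D4:**
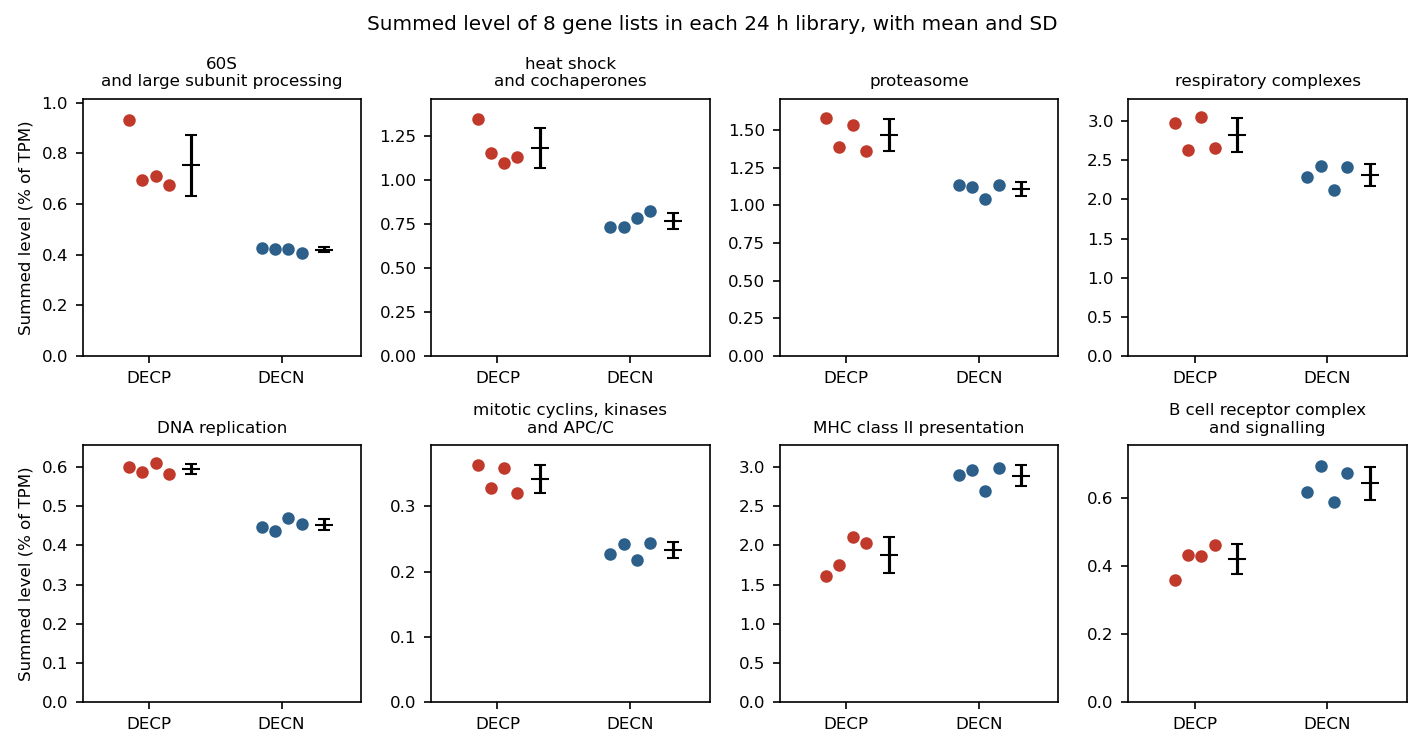
Summed TPM of 8 gene lists as a percentage of the library total, for each DECP library (left) and each DECN library (right) at 24 h. The groups do not overlap in any of the 8 lists, with 6 lists of biosynthesis, breakdown and division higher in DECP and the MHC class II and B cell receptor lists lower. The 8 were picked from 57 lists. Many lists not shown also do not overlap, such as purine synthesis and core spliceosome. Others do, such as cytosolic ribosomal proteins, RNA polymerase I and III, and the MYC and MAX network.

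The genes that present antigen to T cells were lower in the cells that had DEC205. Of 17 tested genes of MHC class II presentation 8 fell and none rose, with a median of -0.62, and the list made up 1.61%, 1.76%, 2.10% and 2.03% of TPM in DECP and 2.90%, 2.96%, 2.69% and 2.98% in DECN libraries. H2-Eb1, the I-E β chain gene (chromosome 17, bases 34305867 to 34316674 of GRCm38), had 1794, 1902, 2322 and 2009 TPM in DECP and 3119, 3394, 3163 and 3487 TPM in DECN libraries (log2 difference -0.72, SE 0.08, adjusted p = 0.000933). H2-Aa, the I-A α chain gene, had 2911, 3316, 3752 and 3823 TPM in DECP and 5519, 5670, 5031 and 5794 TPM in DECN libraries (log2 difference -0.68, SE 0.09, adjusted p = 0.0012). Both genes were lower in each DECP library than in any DECN library, and H2-Ab1, the I-A β chain gene, was lower by the same pattern (log2 difference -0.56). The invariant chain gene Cd74, whose product escorts class II to the endosome, differed by -0.68. Among the loading factors, H2-DMa, one chain of the peptide exchanger DM, differed by -0.62, and H2-Oa and H2-Ob, the chains of its inhibitor DO, by -0.83 and -0.80. Ciita, the coactivator that switches these genes on, had 21.7, 33, 27.2 and 28.8 TPM in DECP and 46.7, 56.4, 40.4 and 56.9 TPM in DECN libraries (log2 difference -0.83, SE 0.19, adjusted p = 0.0255). The other DM chain genes H2-DMb1 and H2-DMb2 (-0.40 and -0.20), the protease gene Ctss (-0.06) and the RFX genes Rfx5, Rfxank and Rfxap (0.04, -0.12 and 0.67) did not pass the test. With 1 library left out 6 to 9 members fell, and under quantile scaling 7. Myeloid and dendritic cells express class II too. Of the 25 markers of such cells 3 passed the filter on low values, and only Apoe was called. Apoe had 406 to 614 TPM in DECP and 1014 to 1123 TPM in DECN libraries. Flt3 had 3.11 to 13.2 TPM in DECP and 4.38 to 8.07 TPM in DECN libraries, and Siglech 0.824 to 1.64 and 0.92 to 2.06 TPM, which overlap. Below the filter, C1qa, C1qb, C1qc and Adgre1 were at 0 TPM in every DECP library. They reached 0.925, 2.1, 6.05 and 4.73 TPM in some DECN libraries. Marco, Cd5l and Lyz2 reached 6.77, 7.06 and 3.21 TPM in DECN and 0.814, 0.454 and 0.389 TPM in DECP libraries. Itgax, Lyz1 and Ly6c1 were above 0 only in DECP libraries, at up to 0.162, 0.24 and 0.582 TPM. The summed markers are given above, and the part of such cells in this result was not tested.

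The B cell receptor complex and its regulators were lower too, with 7 of 40 tested genes down, none up and a median of -0.44. Cd79b, a signalling chain of the receptor, had 848, 993, 952 and 1029 TPM in DECP and 1548, 1851, 1467 and 1682 TPM in DECN libraries (log2 difference -0.77, SE 0.10, adjusted p = 0.0012), and its partner Cd79a differed by -0.78. Of the others, Cd72, Siglecg and the phosphatase gene Ptpn6 (SHP-1) encode inhibitors of the receptor, and differed by -1.13, -1.10 and -0.71. Lat2, an adaptor, and Ptprc complete the called members. The call of Ptprc was lost in 17 of 22 alternative settings, and the groups differ in the allele of that gene. Cd72 had 116, 75.3, 102 and 125 TPM in DECP and 200, 268, 199 and 243 TPM in DECN libraries. The called members hold signalling chains and inhibitors alike, and no library of one group reached the other in any of the 7. Between 5 and 8 fell with 1 library left out, and under quantile scaling 9.

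Other surface molecules of B cells were among the lower genes. Tnfrsf13c, the receptor for the survival factor BAFF, had 122, 175, 133 and 184 TPM in DECP and 274, 255, 323 and 298 TPM in DECN libraries (log2 difference -0.92, SE 0.15, adjusted p = 0.00499), and Tnfrsf13b (TACI) differed by -0.77. These were the 2 called among 38 genes of the CD40 and NF-κB list, and Cd40 itself had 131, 128, 136 and 137 TPM in DECP and 153, 138, 120 and 122 TPM in DECN libraries, which overlap (log2 difference 0.00, SE 0.15). Icosl, the ligand through which B cells engage ICOS on helper T cells, had 6.76, 23, 14.1 and 16.3 TPM in DECP and 33.2, 44.1, 31.7 and 29.7 TPM in DECN libraries (log2 difference -1.25, SE 0.30, adjusted p = 0.0342), one of 3 called among 31 T cell ligand and adhesion genes. Fcer2a (CD23) and Fcrl1 of the naive and memory list, and Ms4a1 (CD20), differed by -1.05, -0.97 and -0.73. Cd83 and Cd86 did not pass the test, with Cd86 at 85.6, 107, 106 and 132 TPM in DECP and 190, 187, 143 and 216 TPM in DECN libraries (log2 difference -0.77, adjusted p = 0.0893), and CD83 protein was a sort gate. In the authors' deposited table both were lower in DECP, with adjusted p of 0.00806 for Cd83 and 0.0297 for Cd86. With 1 library left out the lists gave 1 to 3 lower genes (CD40 and NF-κB), 1 to 3 (T cell ligands) and 0 to 3 (naive and memory, 0 without DECP replicate 1 or DECN replicate 3).

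Among 36 transcription factors of B cells and germinal centres 2 fell and none rose. Id3, an inhibitor of E proteins, had 60.8, 82.5, 62.3 and 62.2 TPM in DECP and 140, 161, 181 and 145 TPM in DECN libraries (log2 difference -1.22, SE 0.15, adjusted p = 0.0012). Klf2, a factor of quiescent lymphocytes, had 1.38, 1.72, 3.1 and 3.4 TPM in DECP and 11.1, 9.76, 7.18 and 5.47 TPM in DECN libraries (log2 difference -1.47, adjusted p = 0.0486). Both genes were lower in every DECP library, although Klf2 was rare. Of 26 immediate early and feedback genes 3 fell: the phosphatases Dusp2 and Dusp5 and the antiproliferative gene Btg2. Dusp2 had 116, 158, 102 and 102 TPM in DECP and 184, 244, 245 and 177 TPM in DECN libraries (log2 difference -0.84). With 1 library left out 0 to 2 genes of that list were called, 0 of them without DECP replicate 3. Of 33 FOXO targets and quiescence genes 3 fell, Klf2, Btg2 and Ypel3, and 0 to 2 did with 1 library left out (0 without DECP replicate 1 or 3). Klf2 lost its call in 16 of 22 alternative settings, and leaving out any library other than DECP replicate 2 gave 1 lower call in the list of transcription factors. Bcl6, the factor that defines germinal centre B cells, and Foxo1, a factor of the dark zone, did not pass the test (log2 differences -0.31 and -0.19).

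A few further genes showed large differences. Acp5, a lysosomal acid phosphatase (chromosome 9, bases 22126727 to 22135711 of GRCm38), had 18.4, 23.4, 14.8 and 17.5 TPM in DECP and 63.2, 72.1, 65.3 and 96.3 TPM in DECN libraries (log2 difference -1.94, SE 0.24, adjusted p = 0.0012). Bmf, a BH3-only protein that promotes cell death, had 0.959, 0.871, 0.438 and 0.869 TPM in DECP and 6.73, 4.61, 7.82 and 4.65 TPM in DECN libraries (log2 difference -1.94, SE 0.27, adjusted p = 0.00217), and it was the only called gene among 33 of the BCL2 family and p53 targets. All DECP libraries stood under 1 TPM of Bmf. Of 47 genes of lysosomes and cathepsins 3 fell, Acp5, Ctsa and Ctsz, and of 21 genes of toll-like receptors and their partners 2 fell, Irf5 and Unc93b1, and 2 or 3 and 1 or 2 did with 1 library left out. Crip1, a small LIM protein, had 540, 721, 735 and 738 TPM in DECP and 1565, 1824, 1510 and 1778 TPM in DECN libraries (log2 difference -1.29, SE 0.17, adjusted p = 0.00129). In the other direction Gnaz, a G protein α subunit, had 14.0, 12.8, 14.2 and 11.2 TPM in DECP and 2.97, 2.07, 1.35 and 0.716 TPM in DECN libraries (log2 difference 2.40, SE 0.31, adjusted p = 0.00138). Adgrl3, an adhesion G protein-coupled receptor, had 77.8, 131, 59.5 and 69 TPM in DECP and 13.6, 18.2, 32 and 27.1 TPM in DECN libraries (log2 difference 1.85, SE 0.29, adjusted p = 0.00389).

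Genes tied to zone, repair and T cell signals were less uniform. Cxcr4, the receptor that draws B cells to the dark zone, had 84.8, 135, 105 and 120 TPM in DECP and 36.8, 47.2, 77.1 and 61.1 TPM in DECN libraries (log2 difference 1.02, SE 0.25, adjusted p = 0.0416), although both groups had been sorted for low CXCR4 protein, and it was the only call among 28 zone and egress receptors. Batf, an AP-1 family factor, had 131, 168, 162 and 112 TPM in DECP and 72.1, 78.1, 51.2 and 52.9 TPM in DECN libraries (log2 difference 1.17, SE 0.23, adjusted p = 0.0147). Exo1, an exonuclease of mismatch repair, had 65.5, 42.3, 47.8 and 47.9 TPM in DECP and 23.9, 19.7, 20.8 and 9.45 TPM in DECN libraries (log2 difference 1.47, SE 0.29, adjusted p = 0.0133). The groups did not overlap in any of these 3 genes. The call of Cxcr4 was lost when any library other than DECN replicate 3 was left out, with adjusted p between 0.0268 and 0.103 over the 8 libraries.

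Myc itself did not pass the test at 24 h. It had 38.3, 36.1, 36 and 27.6 TPM in DECP and 7.59, 14.5, 14.4 and 25.3 TPM in DECN libraries (log2 difference 1.21, SE 0.36, adjusted p = 0.0886 by limma). In the authors' deposited table it was higher in DECP with an adjusted p of 0.0394. Every DECP library stood above every DECN library, with the highest DECN library close to the lowest DECP library. None of 19 genes of the MYC and MAX network was called, with a median of 0.26 that turned to -0.00145 without DECN replicate 3, and at the same threshold none of 43 mTORC1 genes and none of 22 amino acid transport and ATF4 target genes was called. Irf4 had 0.571, 5.25, 1.3 and 1.1 TPM in DECP and 2.05, 1.74, 2.59 and 3.54 TPM in DECN libraries, which overlap (adjusted p = 0.734), and none of 13 plasma cell genes was called. Of 78 mitochondrial ribosomal protein genes 3 rose, a share near that of all genes, although 70 had a difference above 0, the median was 0.42 and the list made up 0.942%, 0.738%, 0.921% and 0.729% of TPM in DECP and 0.645%, 0.677%, 0.611% and 0.632% in DECN libraries. Of 46 genes of folding and secretion in the endoplasmic reticulum 4 rose, and 0 to 2 did with 1 library left out (0 without DECP replicate 2 or DECN replicate 2). Among 42 interferon-induced genes only Oasl1 rose, a share near that of all genes, and the list median was -0.11. Among 20 genes of MHC class I presentation only Canx rose, with a list median of -0.08, and Canx is also counted in the list of folding and secretion.

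The same contrast at 12 h, in 3 DECP and 3 DECN libraries of a table normalized apart, called 248 higher (1.85%) and 141 lower (1.05%) of 13394 genes. Of the 338 genes higher at 24 h that were also tested at 12 h, 299 had a difference above 0 there, against 47.6% of all genes tested at both times, and 85 were called. Of the 164 lower genes, 125 were below 0 at 12 h and 14 were called, and none was called in opposite directions. In a fit of both times over 11815 genes, the signed difference, DECP minus DECN, was larger at 24 h than at 12 h for 16 genes (0.135%). It was smaller for 85 (0.719%). Smaller can mean a positive difference that shrank or one that turned negative, and larger can mean a negative difference that shrank. The labels place all 12 h libraries and all 24 h libraries in separate experiments. An effect of time therefore cannot be told apart from an effect of the experiment in any gene. Of those 85, 47 were cytosolic ribosomal protein genes, of 80 tested, whose median log2 difference was 1.16 at 12 h and 0.10 at 24 h. Their share of TPM was 3.42%, 3.38% and 4.46% in DECP and 1.78%, 1.96% and 1.6% in DECN libraries at 12 h, several times below that in every 24 h library, and the part of this gap between the tables in the result was not tested. The ribosomal count was 33 to 57 with 1 library left out, and 17 with no intensity trend in the variance.

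MHC class II presentation had no call and a median of -0.01 at 12 h, and 3 of its genes, H2-Eb1, H2-DMa and H2-Ob, differed between the times. H2-Eb1 averaged 2007 ± 228 TPM in DECP and 3291 ± 178 TPM in DECN libraries at 24 h (SD, n = 4 each), and 1063 ± 300 TPM in DECP and 889 ± 163 TPM in DECN libraries at 12 h (SD, n = 3 each). Its difference of -0.72 at 24 h and 0.24 at 12 h gave a change of -0.96 (SE 0.22, adjusted p = 0.0424), a call that was lost in 14 of 24 alternative settings. Id3 differed by -1.22 at 24 h and by 0.24 at 12 h, a change of -1.46 (SE 0.25, adjusted p = 0.00615) that passed in all 24. The replication, mitotic, kinetochore and kinesin lists had no call at 12 h, with medians of 0.16, 0.36, 0.12 and 0.05, but no replication or mitotic gene differed between the times by the test of the difference.

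**Figure D5:**
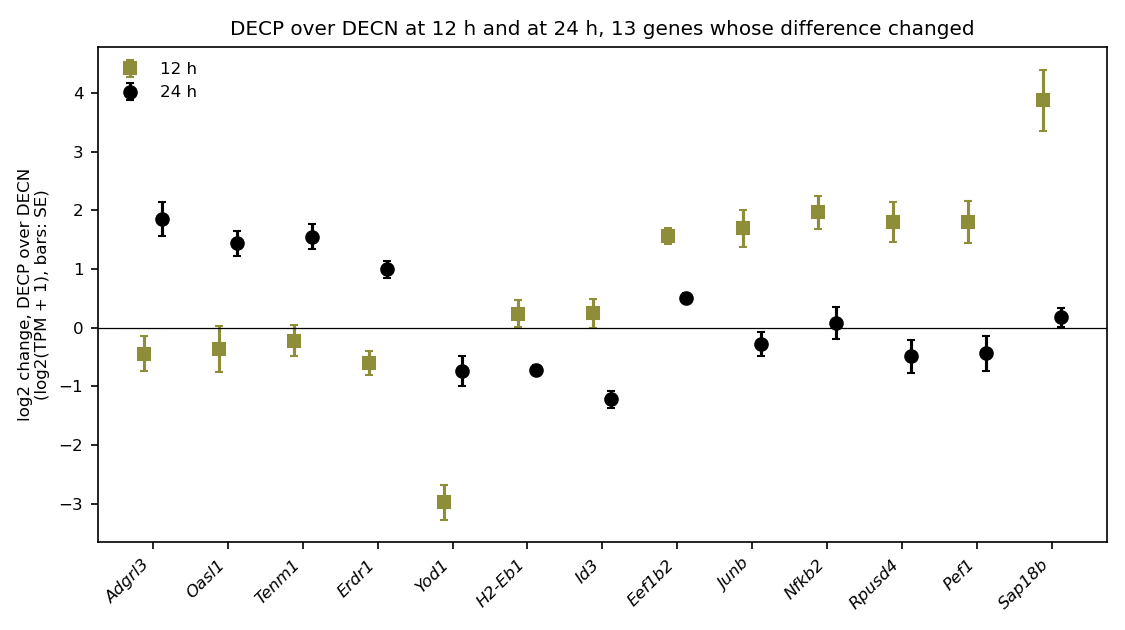
Log2 difference between DECP and DECN at 12 h and at 24 h with its standard error (bars) for 13 genes, from 3 and 4 libraries a group. Adgrl3 lies above 0 at 24 h and slightly below 0 at 12 h, H2-Eb1 and Id3 lie below 0 at 24 h and slightly above 0 at 12 h, and Junb and Nfkb2 lie well above 0 at 12 h and near 0 at 24 h.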

How the data were processed

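RNA was measured in 18 libraries made with a transposase kit (Nextera XT) that does not mark strand, per the labels' protocols, and quantified with kallisto 0.43.0 against GRCm38, per the submitters' processing notes. The authors deposited, per the file headers, a score per gene and library that is TPM plus 1, and 1 was subtracted. Their own comparison table, deposited with a signal per group (mean normalized count), a log2 fold change of DECN over DECP and an adjusted p-value, was used for comparison only. TPM holds no read depth, so the depth of a library is unknown.

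Rows sharing a gene symbol (200 of 30452) were summed to 30351 genes, and 30202 identifiers were found in GENCODE release M21. Genes with at least 1 TPM in at least 4 of the 12 libraries of 24 h were tested with limma 3.58.1 in R 4.3.3 (intensity trend, empirical Bayes, log2(TPM + 1), two-sided, Benjamini-Hochberg, 0.05), which understates the change of low genes. "Rose" and "fell" are used of genes past that threshold. The difference between 24 h and 12 h used all 18 libraries. The procedure was tested on simulated data. Plots were drawn in Python 3.11.15 with matplotlib 3.10.9.

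Groups came from the sample titles. The members and the 57 gene lists were chosen with earlier results of these data known, so lists are described by counts and medians. Genes named are 20 fixed genes, those of smallest p, largest log2 change and largest TPM difference in each direction with a mean of at least 5 TPM for the first sets, and up to 4 called members of each list. For the difference between times they are the 5 largest in each direction. Other genes were named with their values in view. Alternative settings changed the pseudocount, filter, scaling, weights, variance trend, replicate number, second index and each library left out. The replicate numbers were not taken to pair the samples. Since each host received both kinds of cells, libraries of the groups may share animals, and the main fit takes no such pairing into account. Some results are not reported here.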

Additional observations from a re-analysis of the deposited data

Results flagged for a closer look

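One library stood apart from the 3 others of its group in 12 of 128 groups of 4 that were looked at, where chance gives about 1 in 20. In DECP libraries, replicate 1 was apart for Npm1 (3717 TPM, others 2330 to 2450), Crip1 (539.6 TPM, others 721 to 738), Ndufab1 (457.5 TPM, others 501 to 503) and Bcl6 (10.27 TPM, others 14.3 to 15). DECP replicate 2 was apart for Id3 (82.47 TPM, others 60.7 to 62.3), Uck2 (59.94 TPM, others 36 to 39.7) and Irf4 (5.251 TPM, others 0.571 to 1.3), and DECP replicate 4 for Ap3m2 (4.002 TPM, others 2.27 to 2.36). In DECN libraries, replicate 3 was apart for Bcl6 (22.06 TPM, others 14.4 to 15.7), Ccnd2 (20.04 TPM, others 3.79 to 6.47) and Rnf122 (25.79 TPM, others 9.96 to 12.5), and replicate 4 for H2-Ab1 (8577 TPM, others 7980 to 8010).

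For 13 named genes the difference between DECP and DECN at 24 h departed from that at 12 h by the test of the change itself (limma, adjusted over 11815 genes). The times were separate experiments, so time and experiment cannot be told apart here. The signed difference, DECP minus DECN, was larger at 24 h for Adgrl3 (by 2.3 on the log2 scale), Yod1 (2.24), Oasl1 (1.8), Tenm1 (1.77) and Erdr1 (1.59). For Yod1, a deubiquitinase, this came with a 12 h difference of -2.97 and a 24 h difference of -0.73 that did not pass the test. The signed difference was smaller at 24 h for Sap18b (-3.7), Rpusd4 (-2.28), Pef1 (-2.23), Junb (-1.97), Nfkb2 (-1.89), Id3 (-1.46), Eef1b2 (-1.05) and H2-Eb1 (-0.959). For Id3 it went from 0.24 at 12 h to -1.22 at 24 h, and for H2-Eb1 from 0.24 to -0.72. In these genes the groups lay further apart at 24 h. Over 24 alternative settings all 13 kept their direction, and the calls of H2-Eb1, Oasl1, Nfkb2 and Pef1 were lost in 14, 11, 10 and 9 settings, and those of Adgrl3 and Eef1b2 in 1 each.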

How the results depend on the processing

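Set beside 347 higher and 169 lower genes, the counts were 227 and 95 with no filter on low values, 217 and 210 with quantile scaling, and 124 and 54 with no intensity trend. With the replicate number as a block (replicate block) they were 234 and 106, and the change between times was larger for 14 and smaller for 52 genes. Same-numbered libraries did not deviate together (correlations from -0.0295 to -0.000809), so the numbers were not taken to pair the samples. The libraries carry a pair of second index sequences, each shared by 2 DECP and 2 DECN libraries. Within second index A alone, 2 against 2, limma called 0 higher and 0 lower genes (763 and 561 at an unadjusted p under 0.05), and within index B 1 and 4 (985 and 695). Leaving out 1 library gave 191 to 274 higher and 80 to 135 lower genes, with the fewest higher (191, beside 81 lower) without DECP replicate 1. Without DECP replicate 3 there were 199 and 95, without DECN replicate 2 226 and 80, and without DECN replicate 4 229 and 84.

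For the change between times (16 larger, 85 smaller) the larger count was 35 with a pseudocount of 5, 32 with no filter and 36 with array weights, and the smaller count was 32 with no intensity trend. Leaving out 1 library gave 8 to 25 larger and 53 to 110 smaller, with 8 and 54 without the 12 h DECN replicate 3. The Ly75 difference ranged between 7.7 and 10.3 TPM with 1 library left out, with an exact permutation p of 0.05714 without DECN replicate 4 (8.3 TPM) and of 0.02857 otherwise. The cause of these shifts was not tested. All 246 named genes that were called kept their direction in the 22 settings. In most called genes the groups did not overlap. For those, leaving out libraries, splitting by index or changing the pseudocount cannot turn the direction, so these settings do not test it. Calls were less stable than directions. Among the named genes the call was lost in 19 settings for Nop10, 17 for Cox7a2, 16 for Hk2 and for Dusp5, 15 for Plk1 and 13 for Icosl. Values that did not pass the test could change sign, among them the median of the MYC and MAX network list (0.26, and -0.145 within second index A). TPM without read depth limits what can be said of genes near 1 TPM.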
